A study of Mus musculus with 4 samples.

Results

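The cytosolic ribosomal protein genes were examined on expression arrays of mouse spleen. Members were all non-control probe sets whose gene symbol in the platform annotation was a lone symbol beginning Rpl or Rps of a ribosomal protein, leaving out the kinases whose symbols begin with Rps6k. The rule found 49 of 12422 probe sets, for 35 of 8251 genes. Of these, 22 probe sets for 17 genes belonged to the large subunit and 27 probe sets for 18 genes to the small subunit. Total RNA came from spleens of female mice aged 5 months, with 2 arrays from Nrf2 -/- animals (knockout) and 2 from Nrf2 +/+ littermates (wild type). Both genotypes were bred from heterozygotes, whose own parents were Nrf2 +/+ mice on C57B6/SJL and nrf2 -/- mice on C57B6/129SVJ. The genotypes can therefore also differ in strain alleles linked to the Nrf2 gene, and the allele was absent from the whole animal rather than from a chosen cell type. Whether each RNA came from a lone mouse or from pooled mice is not stated in the labels, so the p-values reflect the spread between these 4 samples, and that spread may be technical.

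Cytosolic ribosomal proteins assemble with ribosomal RNA into a large subunit, which joins amino acids, and a small subunit, which reads the messenger RNA. Their messenger RNAs are among the most abundant in lymphoid tissue, and most begin with a run of pyrimidines, the terminal oligopyrimidine tract, through which growth signals control their translation together. The rule follows symbols, so it also took 4 genes that are paralogues of ribosomal proteins, Rpl7l1, Rpl39l, Rps4l and Rps27l. Nrf2, encoded by Nfe2l2, is a transcription factor of antioxidant and detoxification genes and binds antioxidant response elements.

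Promoters of 4 members are shown because these genes mark the range of the results: Rpsa stood highest in wild-type replicate 1 relative to the other arrays, Rpl37a stood least high there among the bright probe sets, Rplp0 is a stalk protein of the large subunit often used as a reference gene, and Rps18 had the most matches to the first motif. Each RefSeq window (GRCm38.p6) runs from 250 bases before to 50 bases after an annotated start. Capitals mark CTTCCG on either strand (read as CGGAAG on the reverse strand), the core of sites for ETS-family factors, and CTTTCC on the gene strand, a run of pyrimidines after a C. The windows lie at chr9:120127516-120127815 (+) for Rpsa, chr17:33955616-33955915 (-) for Rps18, chr1:72711010-72711309 (+) for Rpl37a and chr5:115559217-115559516 (+) for Rplp0.
Rpsa: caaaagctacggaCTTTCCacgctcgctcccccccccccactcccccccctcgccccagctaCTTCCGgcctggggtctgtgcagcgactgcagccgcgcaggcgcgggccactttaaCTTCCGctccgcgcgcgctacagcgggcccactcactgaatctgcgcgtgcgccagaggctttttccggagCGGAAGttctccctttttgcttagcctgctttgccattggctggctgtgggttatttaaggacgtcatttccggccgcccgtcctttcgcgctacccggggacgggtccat
Rps18: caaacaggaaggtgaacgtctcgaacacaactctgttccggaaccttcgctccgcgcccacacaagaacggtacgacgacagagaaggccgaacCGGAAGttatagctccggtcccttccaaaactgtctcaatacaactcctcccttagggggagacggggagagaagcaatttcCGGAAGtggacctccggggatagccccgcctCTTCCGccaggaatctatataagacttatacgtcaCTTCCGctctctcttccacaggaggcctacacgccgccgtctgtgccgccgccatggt
Rpl37a: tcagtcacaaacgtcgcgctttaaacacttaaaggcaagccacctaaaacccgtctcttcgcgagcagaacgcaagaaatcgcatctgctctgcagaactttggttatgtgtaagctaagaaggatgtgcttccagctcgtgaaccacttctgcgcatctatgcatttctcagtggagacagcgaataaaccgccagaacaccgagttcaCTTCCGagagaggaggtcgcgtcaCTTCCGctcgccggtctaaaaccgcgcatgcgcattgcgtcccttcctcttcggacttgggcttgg
Rplp0: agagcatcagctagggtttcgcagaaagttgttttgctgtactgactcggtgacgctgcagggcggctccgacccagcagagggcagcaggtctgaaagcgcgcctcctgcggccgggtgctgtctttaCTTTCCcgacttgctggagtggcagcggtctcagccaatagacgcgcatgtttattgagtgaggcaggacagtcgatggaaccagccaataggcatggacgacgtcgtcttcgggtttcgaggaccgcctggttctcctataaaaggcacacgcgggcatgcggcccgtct

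A promoter was found by gene identifier for 28 of the 35 genes. CTTCCG on either strand was present for 19 of the 28 (67.9%), against 18.8% of all 27025 genes with windows of this length. CTTTCC on the gene strand was present for 14 of the 28 (50%), against 16.01% of all genes. AAGATGGC on either strand, a core of sites for the factor YY1, was present for 5 (17.9%), against 3.19%. TATAAA on either strand, the TATA box, was present for 4 (14.3%), against 15.7%. TGANNNNGC on either strand, a loose form of the antioxidant response element core, was present for 11 (39.3%), against 45.05%. Motifs were counted separately and may overlap, and genes with several starts counted once if any window matched. These matches describe the letters of the windows and do not show that a factor binds there.

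The targeted gene was low in both knockout arrays. Nfe2l2 read 202 and 179 in the knockout arrays, replicate 1 first, near the floor of 185 below which values were raised before log2 was taken, against 3537 and 6321 in wild-type replicates 1 and 2. These levels matched the labels of all 4 arrays. The pairwise medians of the absolute log2 difference over all tested probe sets were 0.26 to 0.30 among the knockout arrays and wild-type replicate 2, and 0.59 to 0.64 for each pair that held wild-type replicate 1. Spleen cell markers were present on every array: summed intensity ran from 180434 to 358908 for B cell markers and from 39304 to 77687 for T cell markers. Of the B cell markers 1 of 12 probe sets, and of the T cell markers 1 of 12, lay below the floor on all arrays.

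**Figure D1:**
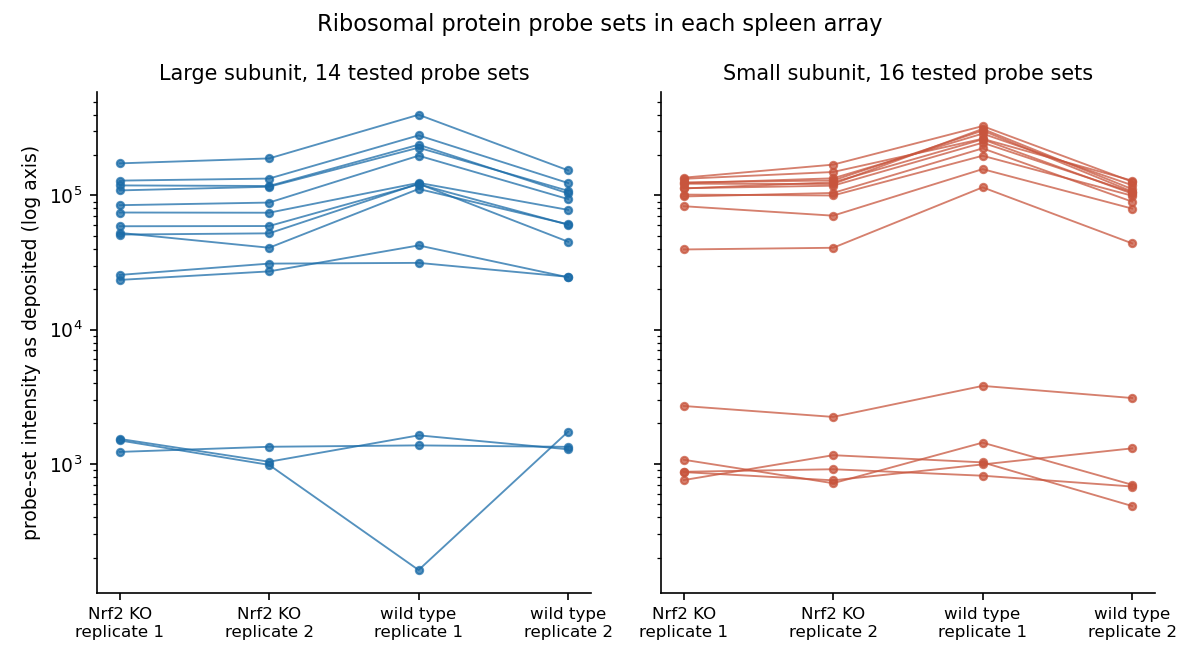
Deposited intensity (log axis) of the 30 tested ribosomal protein probe sets in the 4 arrays, large subunit on the left and small subunit on the right; each line is 1 probe set. The bright probe sets of both subunits lie highest in wild-type replicate 1, and 1 probe set of Rpl22 drops there to 162.

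No ribosomal protein gene passed the test between knockout and wild-type spleen. Of the 49 members, 30 probe sets for 26 genes were bright enough to test, 14 of the large and 16 of the small subunit; the filter kept probe sets with a mean log2 intensity above the 40th percentile. In limma, with p-values adjusted by Benjamini-Hochberg over the 7453 probe sets tested, 0 of 30 members had an adjusted p under 0.05, against 4 probe sets (0.0537%) over all tested. At an unadjusted p under 0.05 the numbers were 0 of 30 and 130 (1.74%). The lowest adjusted p of a member was 0.992, and the lowest unadjusted p was 0.127, for Rpl10a in limma. Of the 30, 26 had a lower and 4 a higher mean in knockout. The median log2 difference, knockout minus wild type, was -0.43 for the large and -0.48 for the small subunit, against 0.04 over all tested probe sets. Both medians turned on wild-type replicate 1: leaving it out moved them to 0.01 and 0.13. Leaving out wild-type replicate 2 instead moved them to -1.01 and -1.06, and the lowest adjusted p of a member was then 0.0583. At an unadjusted p under 0.05 in limma there were then 22 of 30 members, against 2189 (29.4%) of all tested probe sets.

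The spread within the wild-type group exceeded the difference between genotypes. The median difference between the 2 wild-type arrays, replicate 1 minus replicate 2, was 0.94 for the large and 1.15 for the small subunit on the log2 scale. Between the 2 knockout arrays, replicate 1 minus replicate 2, it was -0.04 and -0.06. Both knockout arrays lay below both wild-type arrays for 7 of 30 members, against 12.2% of all tested probe sets. These were 4 of 14 in the large subunit (Rpl8, Rpl7a, Rpl6 and 1 of 2 Rpl10a probe sets) and 3 of 16 in the small subunit (Rpsa, Rps27 and Rps4l). Both knockout arrays lay above both wild-type arrays for 1 of 30 members, the dim probe set of Rps28 (98086_r_at), against 14.3% of all tested. In bulk RNA, fewer cells of a type and less of a messenger RNA per cell cannot be told apart.

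In the large subunit, the stalk protein Rplp0, which helps recruit translation factors, read 128833 and 133431 in the knockout arrays (replicate 1 first, as throughout), and 279912 and 123627 in the wild-type arrays. Wild-type replicate 2 lay below both knockout arrays, and wild-type replicate 1 lay 2.18-fold above the mean of the other 3. The log2 difference between genotypes was -0.51 with a standard error of 0.54 (95% interval -1.75 to 0.74). Rpl41, which encodes the smallest protein of the subunit, was at 173199, 188496, 398627 and 153679 in the same order. It showed the same pattern, and its log2 difference between genotypes was -0.45 with a standard error of 0.57.

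Rpl10a, which encodes a protein of the L1 stalk, was measured by 2 tested probe sets. The first (100711_at) read 52577 and 40744 in knockout and 111638 and 60881 in wild type, with a log2 difference of -0.83, the most negative of the 30, and a standard error of 0.49 (95% interval -1.96 to 0.30). The second (161327_f_at), whose suffix marks possible cross-hybridisation, read 51061 and 52154 in knockout and 122130 and 45184 in wild type, with a difference of -0.53. The probe sets therefore placed wild-type replicate 2 on opposite sides of the knockout arrays, while both read wild-type replicate 1 highest. Rpl8, a protein near the peptidyl transferase centre, read 84536 and 88412 in knockout and 197544 and 93855 in wild type. Its knockout arrays lay below both wild-type arrays, though by little against wild-type replicate 2, and its log2 difference of -0.66 ran from -1.19 to -0.12 with 1 array left out.

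Rpl7, at 118640, 117478, 238478 and 103506, and Rpl19, at 108927, 115988, 226618 and 108145, were the next brightest of the large subunit. Both were highest in wild-type replicate 1 and nearly level across the other arrays. Rpl7a, at 58901, 59119, 121026 and 60498, had its 3 other arrays within 1.03-fold of each other. Rpl6 was at 74541, 74275, 124013 and 77989, and Rpl13a, known also as part of a complex that silences inflammatory messenger RNAs, was at 23461, 27155, 42390 and 24545. In the last pair wild-type replicate 1 stood 1.64-fold (Rpl6) and 1.70-fold (Rpl13a) above the mean of the other 3, less than in most bright members. Rpl37a, a zinc-binding protein, read 25555 and 31032 in knockout and 31427 and 24745 in wild type. It was the only bright member in which wild-type replicate 1 was not more than 1.5-fold above the highest other array, and its log2 difference between genotypes was 0.01 with a standard error of 0.42.

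In the small subunit, Rpsa, which encodes the ribosomal protein SA also known as the laminin receptor precursor, read 39558 and 40714 in knockout and 114806 and 43927 in wild type. Wild-type replicate 1 stood 2.78-fold above the mean of the other 3, the largest such ratio among the 30 members, while those 3 arrays lay within 1.11-fold of each other. The log2 difference between genotypes was -0.82 with a standard error of 0.55 (95% interval -2.09 to 0.44), and with 1 array left out it ran from -0.13, without wild-type replicate 1, to -1.52, without wild-type replicate 2. Rps19, a protein needed for small-subunit maturation and mutated in Diamond-Blackfan anaemia, read 122184 and 121607 in knockout and 312790 and 111402 in wild type. Rps24, also a Diamond-Blackfan gene, read 124988 and 129196 in knockout and 303940 and 106771 in wild type. In both genes wild-type replicate 2 was the lowest array and wild-type replicate 1 the highest, by 2.64-fold and 2.54-fold over the mean of the other 3.

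Rps28 was measured by 3 tested probe sets. The bright pair gave the same picture: 100758_at read 112617, 125144, 261452 and 103111, and 98085_f_at read 135491, 169457, 328264 and 126486. The dim 98086_r_at read 873, 912, 816 and 678, and its wild-type replicate 1 lay 0.003 on the log2 scale from the mean of the other 3. Rps18, at 123155, 134032, 288391 and 119076, and Rps3a1, at 132890, 149352, 264138 and 128776, were further bright members with wild-type replicate 1 highest and wild-type replicate 2 lowest. Rps7, a protein that can bind Mdm2, read 83055 and 70619 in knockout and 156911 and 79757 in wild type, so its wild-type replicate 2 lay between the knockout arrays. Rps3, which also has a role in DNA repair, read 101365 and 99823 in knockout and 197404 and 99425 in wild type, with the other 3 arrays within 1.02-fold.

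The 8 tested members that were not above 20000 on every array showed this pattern weakly or not at all. Wild-type replicate 1 was the highest array in 4 of the 8, against 37.3% of all tested probe sets. It lay above the mean of the other 3 in 7, against 3704 of all 7453 tested. It was over 1.5-fold above the highest other array in 0 of the 8, against 12%. Its median log2 difference from the mean of the other 3 was 0.22, and the largest was 0.82, for Rps29. Rpl22, a protein of the large subunit with a role in T cell development, had 2 tested probe sets that disagreed in wild-type replicate 1. The first (92857_at) read 1496 and 983 in knockout and 162 and 1738 in wild type, so that wild-type replicate 1, raised to the floor, lay 7.37-fold below the mean of the other 3. The second (92856_at) read 1535 and 1038 in knockout and 1631 and 1284 in wild type. It placed wild-type replicate 1 highest, by 1.29-fold over the mean of the other 3. Their log2 differences between genotypes were 1.09 (standard error 0.93) and -0.20 (standard error 0.43).

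Rps13 (93027_r_at) read 757 and 1161 in knockout and 1026 and 486 in wild type, and Rps29 (98523_at) read 1074 and 718 in knockout and 1440 and 699 in wild type. The arrays of each genotype overlapped in both genes. Rps27, which encodes a zinc-finger protein, read 2700 and 2238 in knockout and 3810 and 3095 in wild type, with a log2 difference of -0.48 and a standard error of 0.39. Of the paralogues, Rpl7l1 was level at 1228, 1341, 1373 and 1339. Rps4l (98149_s_at) read 869 and 754 in knockout and 991 and 1305 in wild type, so that wild-type replicate 2 rather than replicate 1 was highest.

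The other 19 members were too dim to test. Their intensities ran from 11.0 to 969 over the 4 arrays, and 9 genes had no tested probe set: Rpl32, Rpl35a, Rpl38, Rpl39, Rpl39l, Rps14, Rps15, Rps20 and Rps27l. Several of these encode proteins of every ribosome, so a dim probe set here does not show that the gene is silent. Rps4x shows this within 1 gene: 100780_at read 113088, 118084, 246743 and 105382, while its 4 other probe sets read between 35.9 and 655. Rpl7, Rpl19, Rps24, Rps29 and Rps4l each also had a dim probe set beside a tested one.

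Wild-type replicate 1 held more ribosomal protein signal than the other arrays. Of the summed intensity, the 49 members took 4.57% and 4.74% in the knockout arrays, against 8.16% for wild-type replicate 1 and 4.47% for wild-type replicate 2. The large subunit took 1.97%, 2.01%, 3.36% and 1.97%, and the small subunit took 2.60%, 2.73%, 4.80% and 2.50%, in the same order. Wild-type replicate 1 was the highest array for 26 of 30 tested members (13 of 14 large, 13 of 16 small), against 37.3% of all tested probe sets. It lay over 1.5-fold above the highest other array for 21 of 30 (10 large, 11 small), against 12% of all tested. It lay over 1.5-fold below the lowest other array for 1 of 30, Rpl22 (92857_at), against 20.8%. The median difference from the mean of the other 3 arrays was 1.03 on the log2 scale (2.04-fold) for the large and 1.08 (2.11-fold) for the small subunit. With 1 array there is no test of this difference.

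**Figure D2:**
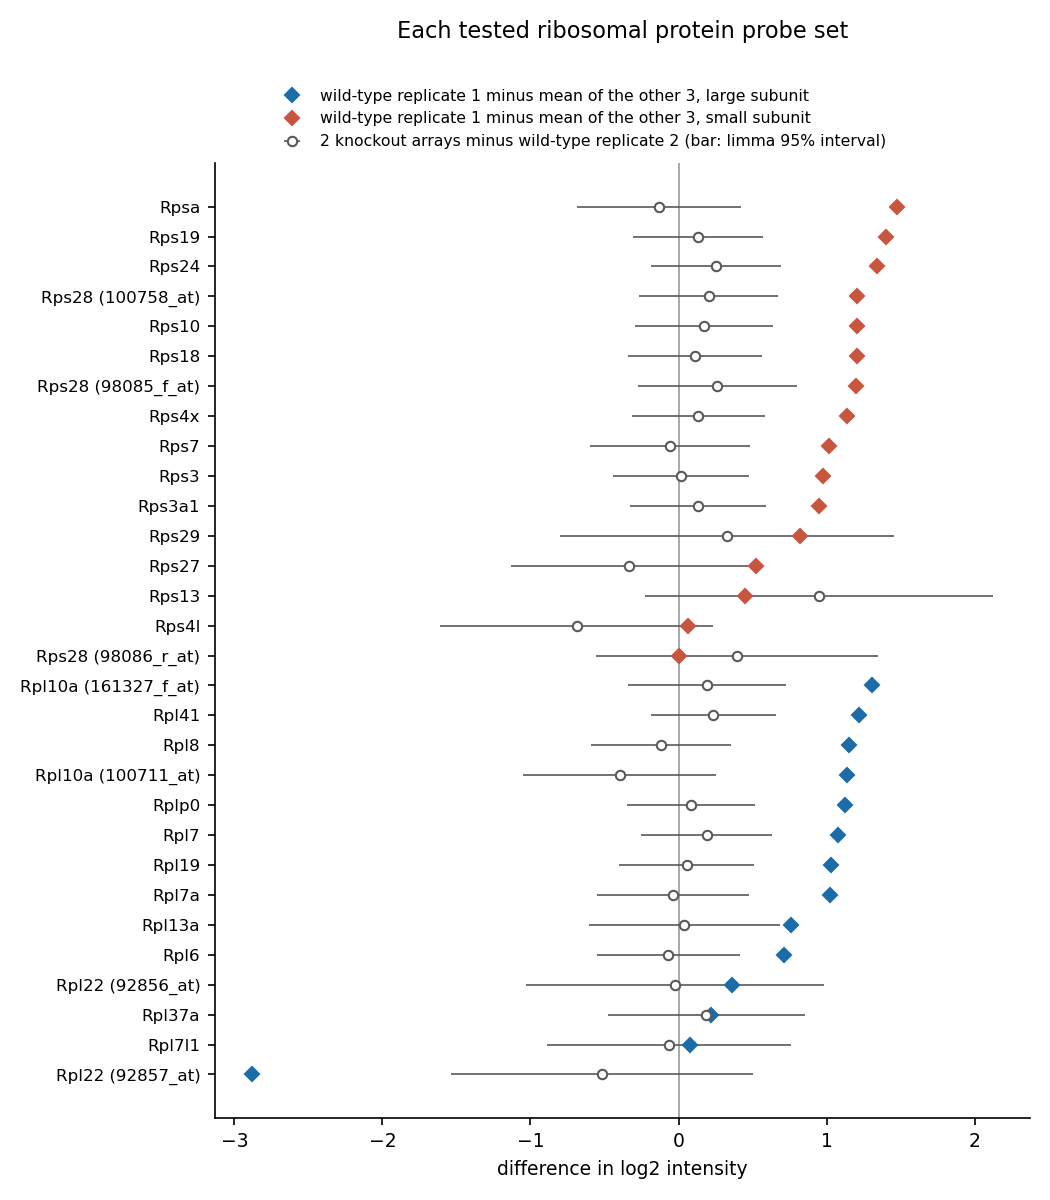
Differences in log2 intensity for each of the 30 tested probe sets: diamonds show wild-type replicate 1 minus the mean of the other 3 arrays, and open circles show the mean of the 2 knockout arrays minus wild-type replicate 2, with limma's 95% interval. Diamonds of bright members lie mostly near 1 while every circle's interval includes 0; Rpl22 (92857_at) lies at -2.88.

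The other 3 arrays held the bright ribosomal genes at nearly the same level. They lay within 1.5-fold of each other for 26 of 30 members, against 64.2% of all tested probe sets, and for 22 of the 22 members above 20000 on every array. For those 22, the median absolute log2 difference was 0.08 between the knockout arrays, 0.10 between knockout replicate 1 and wild-type replicate 2, and 0.17 between knockout replicate 2 and wild-type replicate 2. It was 1.07 to 1.19 for the pairs with wild-type replicate 1. For the bright members the 2 wild-type arrays were thus the farthest pair, and wild-type replicate 2 lay close to both knockout arrays.

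With wild-type replicate 1 left out, 2 knockout arrays stood against 1 wild-type array, whose spread limma takes to be that of the knockout pair. No member had an adjusted p under 0.05 (0 of 30), against 3 of all tested probe sets (0.0403%), and the lowest adjusted p of a member was 0.99997 in limma. Of the 30 members 19 were then higher and 11 lower in knockout, with a median log2 difference of 0.10. The large subunit split evenly, 7 higher and 7 lower, and the small subunit had 12 higher and 4 lower. Both knockout arrays lay above wild-type replicate 2 for 18 of 30 members, 6 large and 12 small, against 31.9% of all tested probe sets. They lay below it for 8 of 30, 5 large and 3 small, against 28.9%. The sizes were small: among the bright members the difference ran from -0.40 (Rpl10a, 100711_at) to 0.26 (Rps28, 98085_f_at). The interval for Rps28 was -0.28 to 0.80, and that for Rpl10a was -1.05 to 0.26.

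The height of wild-type replicate 1 differed between ranges of brightness without a steady trend, and it changed with the scaling. Brightness here is the geometric mean of the 3 arrays other than wild-type replicate 1. Among the 14 members above 80000 the median log2 difference from the mean of the other 3 was 1.18, and wild-type replicate 1 was highest in 14 of 14. Of other genes as bright, with 1 symbol each, it was highest in 14 of 17, with a median of 0.59. Between 40000 and 60000 the medians were 1.22 for 4 members and 0.04 for 50 probe sets of other genes. Between 60000 and 80000 they were 0.86 for 2 members and -0.24 for 20 others, and between 20000 and 40000 they were 0.49 for 2 members and 0.11 for 189 others.

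**Figure D3:**
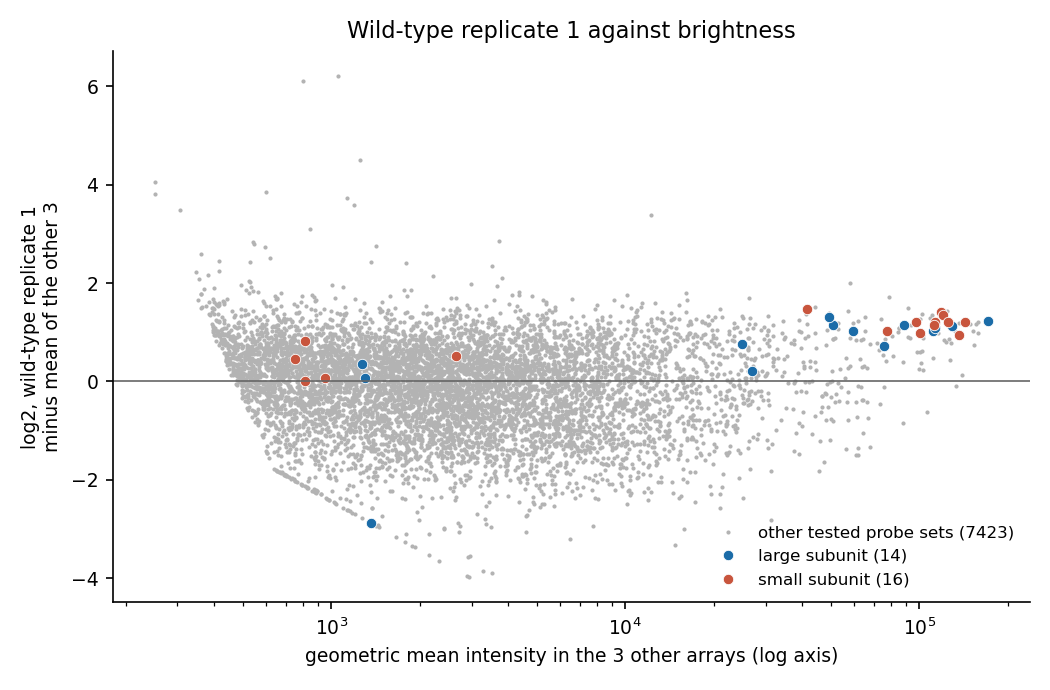
Wild-type replicate 1 minus the mean of the other 3 arrays (log2) against the geometric mean intensity of those 3 arrays (log axis) for all 7453 tested probe sets. Ribosomal members, in colour, make up much of the right end, where they lie near 1. The dim members lie from 0.003 to 0.82, apart from Rpl22 (92857_at), which lies far below 0.

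Quantile normalization, which gives every array the same distribution and so ties the brightest probe sets to a common level, left a difference of 0.16 for the large and 0.20 for the small subunit. Cyclic loess, which bends each array along brightness, left 0.44 and 0.51. Centring each array on its median gave 1.11 and 1.16. Over all tested probe sets the median difference was 0.08, 0.09 and 0.08 under these scalings, in the same order. Wild-type replicate 1 was the highest array for 7 of 14 large and 11 of 16 small members after quantile normalization, against 3037 of 7453 tested. After cyclic loess it was highest for 12 of 14 and 13 of 16, against 3080 of 7453. The median of the genotype difference moved with it, from -0.48 over the 30 members as deposited to -0.12 after quantile normalization and -0.24 after cyclic loess. The choice between these scalings was not settled by the files.

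**Figure D4:**
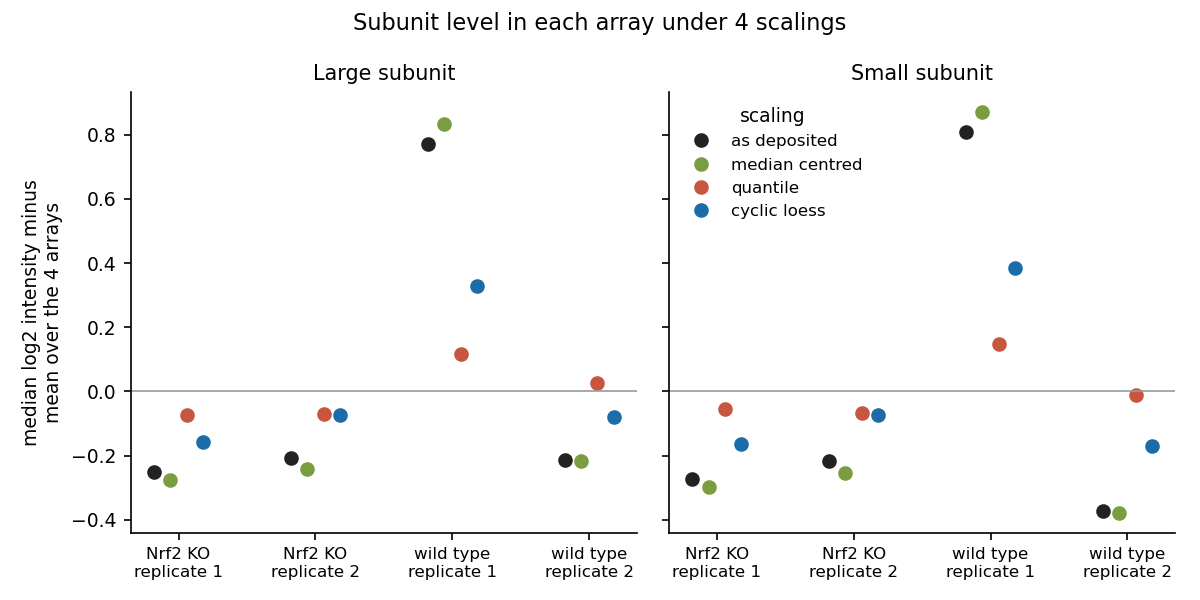
Median log2 intensity of the large (left) and small (right) subunit in each array, relative to each probe set's mean over the 4 arrays, under 4 scalings. Wild-type replicate 1 is highest under each, at 0.77 and 0.81 as deposited and at 0.12 and 0.15 after quantile normalization. Its median over all tested probe sets (not drawn) is 0.06 after quantile normalization.

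The other genes of translation did not all stand as high in wild-type replicate 1. Over all tested probe sets that array was highest in 37.3%, and its median difference from the other 3 was -0.004. Among 66 tested probe sets of mitochondrial ribosomal proteins, which build the separate ribosome of mitochondria, wild-type replicate 1 was highest in 45 and the median difference from the other 3 was 0.63. Under quantile normalization that median was 0.79, above the value as deposited, in contrast to the cytosolic members. For 40 probe sets of translation initiation factors the median was -0.01 with 18 highest, and for 11 of elongation and release factors -0.03 with 5 highest. For 20 probe sets of other messenger RNAs with a terminal oligopyrimidine tract it was 0.05 with 9 highest. For 40 ribosome assembly factors it was 0.29 with 22 highest, for 14 of RNA polymerases I and III 0.31 with 8 highest, and for 22 aminoacyl-tRNA synthetases 0.21 with 11 highest. For 8 probe sets (6 genes) of regulators of translation and ribosome supply it was 0.60 with 5 highest, a median near the mitochondrial value. Of these 8, however, 1 lay over 1.5-fold above the highest other array and 2 over 1.5-fold below the lowest. For the 66 mitochondrial probe sets these numbers were 26 and 6. Over all tested probe sets the shares were 12% and 20.8%. The lists share some genes with each other. The initiation and elongation lists followed symbols, so they also took genes that are not such factors themselves. These were the kinases Eif2ak1, Eif2ak3 and Eif2ak4, the binding proteins Eif4ebp1 and Eif4ebp2, and the methyltransferase Eef1akmt1. The 11 elongation and release probe sets came from 7 genes.

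**Figure D5:**
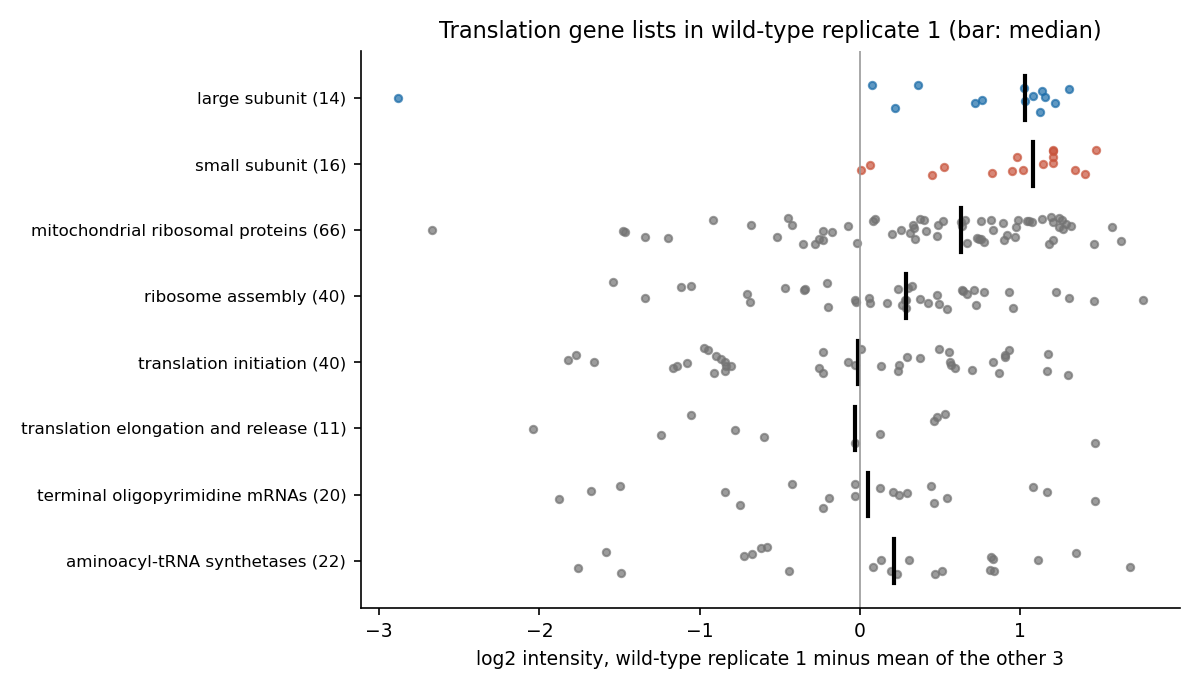
Wild-type replicate 1 minus the mean of the other 3 arrays (log2) for the tested probe sets of each translation list; each point is a probe set, its vertical offset is arbitrary, and the bar is the median. The subunit medians lie at 1.03 and 1.08, the mitochondrial ribosomal proteins at 0.63 and the initiation factors at -0.01.

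No probe set of these lists had an adjusted p under 0.05 between genotypes in limma, against 0.0537% of all tested. At an unadjusted p under 0.05 in limma, 3 of 66 mitochondrial ribosomal and 1 of 8 regulator probe sets passed, against 1.74% of all tested. The other lists had 0. Of the 66 mitochondrial ribosomal probe sets 50 were lower and 16 higher in knockout, with a median of -0.34, and without wild-type replicate 1 the median was -0.04. Mrpl54, of the large mitochondrial subunit, read 914 and 630 in knockout and 2729 and 1188 in wild type. Mrps25 (104234_at), of the small one, read 499 and 665 against 1305 and 1194, and Mrps11 read 776 and 744 against 1771 and 1278. The groups of these probe sets, named for the smallest p of their list, did not overlap. In limma their unadjusted p was 0.044, 0.036 and 0.050, and the adjusted p was 0.992 each. Both knockout arrays lay below both wild-type arrays for 12.2% of all tested probe sets. The brighter Mrps25 probe set (102128_f_at) read 5011 and 7077 in knockout and 15176 and 4712 in wild type, so its groups overlapped.

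Initiation factors were 21 higher and 19 lower, and elongation and release factors 7 higher and 4 lower. Eif1a (103708_at), which helps the small subunit scan for the start codon, read 3119 and 3329 in knockout and 840 and 2519 in wild type. Eif6, which keeps the subunits apart and takes part in large-subunit maturation, read 2087 and 1550 in knockout and 3917 and 2684 in wild type. Eef1d, of the elongation factor complex, read 7694 and 6955 in knockout and 21768 and 9100 in wild type, and Etf1 (96755_at), the release factor, read 6293 and 10660 in knockout and 1941 and 7614 in wild type. The first and the last of these probe sets were lowest in wild-type replicate 1, and the middle pair was highest there. Other Etf1 probe sets disagreed: 96754_s_at and 160451_at were also lowest there, while 98608_at and 161344_r_at were highest there. Etf1 98608_at read 9261 and 9074 in knockout and 12232 and 8026 in wild type. Eif1a 93058_at was also lowest there, but its wild-type replicate 2 lay above both knockout arrays.

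Of the other lists, 11 probe sets of terminal oligopyrimidine messenger RNAs were higher and 9 lower in knockout, 13 and 27 of ribosome assembly, 4 and 10 of RNA polymerases I and III, and 8 and 14 of aminoacyl-tRNA synthetases. Among them Nop56 (95109_at), a core protein of box C/D particles, read 9704 and 10036 in knockout and 34414 and 10714 in wild type, and Taf1c, of the RNA polymerase I selectivity factor, read 2136 and 3367 in knockout and 8627 and 2609 in wild type. Both were far higher in wild-type replicate 1 alone. Hars, the histidyl-tRNA synthetase, read 4277 and 8270 in knockout and 1683 and 5201 in wild type, with wild-type replicate 1 lowest. Among 8 probe sets of regulators, 3 higher and 5 lower, Larp1, a protein that binds terminal oligopyrimidine messenger RNAs, read 6579 and 7607 in knockout and 2752 and 4180 in wild type. Its unadjusted p was 0.034 and its adjusted p 0.992 in limma.

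Probe sets annotated to several genes, of which at least 1 has a ribosomal protein symbol, lay outside the rule and give a separate reading of the family. There were 39, and 35 of them were tested. Wild-type replicate 1 was highest in 34 of the 35, against 37.3% of all tested probe sets. It lay over 1.5-fold above the highest other array in 24, against 12%. Its median difference from the mean of the other 3 was 0.92 (1.90-fold). Between genotypes 0 of 35 had an adjusted p under 0.05 in limma (0.0537% of all tested), and 0 an unadjusted one (1.74%). Their median log2 difference was -0.41, or 0.08 without wild-type replicate 1. Together with the members these 88 probe sets took 9.58% and 9.98% of the signal in knockout, against 16.04% for wild-type replicate 1 and 9.52% for wild-type replicate 2.

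Some other measures, though not all, stood apart in wild-type replicate 1. Signal at the 3' end of Gapdh, relative to the 5' end, was 88.3 there. It was 25.5, 34.8 and 8.07 in the other arrays (the knockout pair first). For beta-actin it was 14.4 in wild-type replicate 1, below the 19.3 and 16.1 of the knockout arrays and above the 8.86 of wild-type replicate 2. For both controls the 3' signal thus exceeded the 5' signal at least 8.07-fold on every array. What this uneven signal did to the intensities, and to disagreements between probe sets, was not tested on any array. Summed intensity of exocrine pancreas markers was 87473 in wild-type replicate 1, against 12917 to 25396 in the other arrays. Of these markers 0 of 8 lay below the floor on all arrays, and 7 of 8 tested probe sets were highest in wild-type replicate 1. B cell markers summed to 358908 against 180434 to 220318, but wild-type replicate 1 was highest in 6 of the 11 tested, by over 1.5-fold in 2. Over all tested probe sets it was highest in 37.3%, and by over 1.5-fold in 12%. Ms4a1, which encodes CD20, had 1 probe set highest there (104173_at, 145330) and 1 lowest there (99446_at, 12050). T cell markers summed to 77687 against 39304 to 52904, with wild-type replicate 1 highest in 8 of 10 tested. Plasma cell markers summed to 28230 against 60552 to 72075, with 0 of 6 below the floor on all arrays. Jchain, the immunoglobulin joining chain, made up 21863 of that lowest sum. Wild-type replicate 1 was lowest in 3 of the 5 tested, against 2923 of all 7453 tested probe sets. It was highest in 2, Tnfrsf17 and Sdc1. The part of any of these in the ribosomal result was not tested.

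The remaining marker lists varied between the arrays in other ways. Erythroid markers summed to 168939 and 311385 in knockout and 475722 and 263256 in wild type, and markers of proliferating cells to 88163 and 187495 against 160211 and 140770. Neutrophil markers summed to 505593 and 569710 in knockout and 709843 and 174001 in wild type, the sum being carried largely by S100a8 and S100a9. Of 13 tested neutrophil probe sets all 13 had a higher mean in knockout, against 4004 of all 7453 tested. Their median log2 difference was 1.04 (1.94 without wild-type replicate 1). In limma 5 had an unadjusted p under 0.05, against 1.74% of all tested, and 0 an adjusted one, against 0.0537%. Wild-type replicate 1 was highest in 3 of the 13, against 37.3% of all tested. Elane, Prtn3, Mmp9, Ctsg, Camp, both Mpo probe sets and Lcn2 (160564_at) were lower in both wild-type arrays than in both knockout arrays. The groups of the remaining neutrophil probe sets overlapped. Both knockout arrays lay above both wild-type arrays for 14.3% of all tested probe sets. Platelet markers summed to 17161 and 14218 against 17778 and 6852, with 4 of 4 tested higher in knockout, and macrophage markers to 162832 and 118658 against 128497 and 140268. The part of these lists in the ribosomal result was not tested.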

How the data were processed

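The authors deposited 1 intensity per probe set on a linear scale for 4 one-colour arrays, 2 per genotype; which software and scaling made them is not given in the sources used here. All columns belonged to a sample, with 0 left over. The deposited intensities were used without rescaling. Values below the pooled 25th percentile (185) were raised to it, log2 was taken, and probe sets with a mean log2 above the 40th percentile were tested (7453 of 12422, after removing 66 controls). Knockout and wild type were compared with lmFit and eBayes with an intensity trend (limma 3.58.1, R 4.3.3), with two-sided tests and Benjamini-Hochberg adjustment at 0.05. Fold differences are on the floored scale, which understates those of dim genes; a lower fold against a value at the floor is a smallest estimate.

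Symbols came from the platform annotation, updated through gene identifiers; 10833 probe sets had 1 symbol, 396 several and 1193 none, 10817 of the first matched the gene table, and so did all 49 members. The number of arrays limits the precision; with 2 against 2 an exact permutation test cannot pass any usual threshold, so none was run. The procedure was tested on simulated data. Python 3.11.15 and matplotlib 3.10.9 made the figures.

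The members, the lists and the tests were chosen with earlier results of these data known. Members named were those with the largest differences in each direction, the brightest, those farthest from the other arrays in wild-type replicate 1, the untested, the paralogues and genes whose probe sets disagreed, and from each other list up to 3 genes with the smallest p. Rpl6, Rpl13a, Rps3, Rps4x and Rps27 were named after their values were seen. Alternatives covered scaling, floor, a pseudocount of 16, filter, variance model, replicate block, arrays left out, cross-hybridising probe sets and the brightest probe set per gene. The scalings of the level in wild-type replicate 1 and the restriction to members above 20000 were added after seeing the data.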

Additional observations from a re-analysis of the deposited data

How the results depend on the processing

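The number of ribosomal members with an adjusted p under 0.05 was 0 in limma under each alternative run. With all 4 arrays, 0 to 1 members had an unadjusted p under 0.05 in limma. A fit with 1 array left out takes the spread of its lone array from the other pair. Its p-values therefore do not reflect the spread of both groups. Over all tested probe sets 4 passed; the number was 0 without the filter in limma (339 at an unadjusted p under 0.05), 36 with the replicate block, 2 when probe sets marked for cross-hybridisation were left out, and 3 to 13 with 1 array left out. The replicate numbers share only a number: the deviations of same-numbered arrays correlated at 0.039, and the block called 0 members; in this balanced layout it cannot move a genotype difference. The medians ran from -1.01 to 0.0076 (large) and from -1.06 to 0.13 (small) with 1 array left out. After quantile normalization the level of wild-type replicate 1 over the other 3 was 0.16 (large) and 0.20 (small), against 0.08 over all tested. After cyclic loess it was 0.44 (large), against 0.09, and the cause was not tested. The genotype difference reversed for Rps3a1 (0.015) under quantile normalization and for Rpl37a (-0.045) with median centring. With 1 array left out, 17 members reversed without wild-type replicate 1. Rpl22 (92856_at), Rpl37a and Rps13 kept their sign without that array and reversed without another. The differences ran from -1.24 to 0.19 for Rpl10a (161327_f_at), -0.75 to 0.040 for Rpl13a and -1.01 to 0.056 for Rpl19. They ran from -0.48 to 0.085 for Rpl22 (92856_at), -0.52 to 2.71 for Rpl22 (92857_at), -0.16 to 0.19 for Rpl37a and -1.14 to 0.23 for Rpl41. They ran from -1.01 to 0.19 for Rpl7, -1.09 to 0.085 for Rplp0, -1.15 to 0.17 for Rps10, -0.13 to 0.95 for Rps13, -1.17 to 0.11 for Rps18, -1.36 to 0.13 for Rps19, -1.26 to 0.25 for Rps24. They ran from -1.14 to 0.20 for Rps28 (100758_at), -1.12 to 0.26 for Rps28 (98085_f_at), -0.71 to 0.33 for Rps29, -0.97 to 0.017 for Rps3, -0.91 to 0.13 for Rps3a1, -1.09 to 0.13 for Rps4x. The differences kept their sign, but ran from -1.27 to -0.40 for Rpl10a (100711_at), -0.74 to -0.068 for Rpl6, -1.04 to -0.036 for Rpl7a and -1.03 to -0.059 for Rps7. The median standard error over all tested probe sets, 0.46 on the log2 scale, limits what 2 arrays per group can show.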
